A study of Mus musculus with 26 samples.

Results

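Total H3K4me3 was compared between DPPA2/4 double knockout (DKO) and wild-type (WT) clones of mouse embryonic stem cells (mESCs) in 4 of the 26 libraries of the series. The regions were the 31935 listed for WT cells together with the 11130 of the 33905 listed for DKO cells that overlapped none of them, 43065 in all. All 4 libraries came from E14 cells, an established mESC line, grown in serum with LIF. WT clones 57 and 58 served as controls, and DKO clones 43 and 53 lacked both Dppa2 and Dppa4. Each of the 4 is 1 clonal line and gave 1 H3K4me3 library, so the spread within a genotype is that between 2 clones, and differences between clones unrelated to the knockout enter every comparison. The study asked whether sequential ChIP (reChIP), in which chromatin pulled down with an antibody to H3K4me3 or H3K27me3 is pulled down again with the other, follows changes in bivalent chromatin. Each experiment started from 2000000 cells, and total H3K4me3 was measured in-line, on the 10% of the H3K4me3 pull-down that was put aside before the second antibody was added. It therefore shares cells and the first pull-down with the K4-K27 reChIP of the same clone, while K27-K4 began with H3K27me3. According to the study, its H3K4me3 antibody may also bind H3K4me2.

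H3K4me3 is deposited by SET1 and MLL complexes around start sites of transcription, most strongly at CpG-rich promoters. Polycomb group complexes place H3K27me3, and promoters that carry both marks in mESCs are called bivalent and often belong to developmental genes that are silent or little expressed. DPPA2 and DPPA4 are a pair of small DNA-binding proteins of pluripotent cells and the early embryo, known as epigenetic priming factors because they keep a subset of bivalent promoters marked.

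The sequences below are printed because the regions that lost and those that gained H3K4me3 differed in CpG density. Capitals mark each CpG. The first 5 are RefSeq promoter windows on GRCm38.p6, from 250 bases before to 50 after a start site, written 5′ to 3′ on the strand of the gene. Sytl4 had the largest fall of a promoter region, Sohlh2 the largest among germline genes, Csf1 is a lost promoter that the study names, Klf4 kept its H3K4me3, and Slc25a25 gained it at this start site, although its strongest promoter region, at another start, was not called.
Sytl4: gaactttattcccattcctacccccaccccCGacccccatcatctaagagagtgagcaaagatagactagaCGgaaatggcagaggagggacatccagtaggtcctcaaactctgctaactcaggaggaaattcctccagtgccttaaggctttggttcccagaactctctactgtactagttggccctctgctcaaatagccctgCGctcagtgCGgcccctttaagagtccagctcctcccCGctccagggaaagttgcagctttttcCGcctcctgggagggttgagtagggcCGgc
Sohlh2: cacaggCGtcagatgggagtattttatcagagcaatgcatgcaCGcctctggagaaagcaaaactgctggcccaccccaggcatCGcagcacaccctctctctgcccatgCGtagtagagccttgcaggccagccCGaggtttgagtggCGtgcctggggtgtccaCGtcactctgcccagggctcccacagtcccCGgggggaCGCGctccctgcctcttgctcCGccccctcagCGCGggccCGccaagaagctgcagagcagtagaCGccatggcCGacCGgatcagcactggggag
Csf1: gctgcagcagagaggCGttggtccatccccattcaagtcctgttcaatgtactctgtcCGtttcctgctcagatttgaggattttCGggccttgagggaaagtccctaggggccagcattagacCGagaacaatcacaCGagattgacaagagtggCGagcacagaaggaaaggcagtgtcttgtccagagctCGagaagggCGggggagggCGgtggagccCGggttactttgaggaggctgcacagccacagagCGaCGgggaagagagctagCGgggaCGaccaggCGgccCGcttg
Klf4: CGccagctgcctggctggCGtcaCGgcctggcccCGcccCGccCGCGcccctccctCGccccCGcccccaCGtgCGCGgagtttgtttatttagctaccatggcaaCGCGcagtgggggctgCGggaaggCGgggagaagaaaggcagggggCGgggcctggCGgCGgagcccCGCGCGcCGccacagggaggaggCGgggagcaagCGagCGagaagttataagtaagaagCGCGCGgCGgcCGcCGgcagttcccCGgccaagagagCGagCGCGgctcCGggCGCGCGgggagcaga
Slc25a25: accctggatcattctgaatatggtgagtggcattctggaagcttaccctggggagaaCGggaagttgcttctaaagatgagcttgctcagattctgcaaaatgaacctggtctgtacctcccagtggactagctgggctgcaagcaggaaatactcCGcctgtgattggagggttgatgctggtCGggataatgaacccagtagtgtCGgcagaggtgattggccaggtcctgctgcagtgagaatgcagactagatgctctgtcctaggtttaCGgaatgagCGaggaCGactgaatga
The windows lie at chrX:133981763-133982062 (minus strand), chr3:55181794-55182093 (plus), chr3:107760420-107760719 (minus), chr4:55532426-55532725 (minus) and chr2:32431102-32431401 (minus), in the order printed. They hold 7 CpGs at Sytl4, 17 at Sohlh2, 16 at Csf1, 40 at Klf4 and 7 at Slc25a25. The dinucleotide CG, read on either strand alike, was present in 99.9% of the windows of 11835 genes that had both a window and an H3K4me3 region at the promoter. Their median was 22 CpGs. The 280 such genes with a lost region had a median of 12.5, with quartiles of 8 and 19.
Away from promoters, the first sequence below is the 189-base stretch, on the plus strand at chr15:45590189-45590377, that the lost regions nearest to Kcnv1 and Ptchd1 have in common, and the second is the whole gained region nearest to Ndufa11b, on the plus strand at chr16:22093501-22093800.
Kcnv1 and Ptchd1: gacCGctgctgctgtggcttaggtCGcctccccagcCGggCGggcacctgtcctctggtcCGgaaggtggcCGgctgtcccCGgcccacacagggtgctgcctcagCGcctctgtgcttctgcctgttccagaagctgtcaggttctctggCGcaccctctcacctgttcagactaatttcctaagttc
Ndufa11b: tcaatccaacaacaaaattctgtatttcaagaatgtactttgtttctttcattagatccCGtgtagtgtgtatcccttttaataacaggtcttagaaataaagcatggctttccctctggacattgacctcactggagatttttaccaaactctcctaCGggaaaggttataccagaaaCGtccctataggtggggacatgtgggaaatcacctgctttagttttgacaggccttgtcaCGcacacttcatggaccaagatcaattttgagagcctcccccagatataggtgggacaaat
The shared stretch holds 9 CpGs, and the longer gained region holds 4.

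Values are log2 RPM per kb (RPM being reads scaled to the size of the library), and a difference is DKO minus WT on that scale. The 4 libraries rested on 16697635 to 27181430 reads each. The libraries differed in how much of their signal fell in the tested regions, which held 41.9% of the reads of WT 57, 18.5% of WT 58, 32.9% of DKO 43, 25.4% of DKO 53 and 6.34% of the single IgG–IgG control, from WT 57. WT 57 was above WT 58 in 85.7% of all regions. Across all regions, Pearson's r between libraries was 0.849 for the WT pair, 0.909 for the DKO pair and 0.620 to 0.667 between genotypes, as a description over regions that are not independent.

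The promoters of the deleted genes kept a region in both genotypes. At Dppa2 (chr16:48309301-48312450) H3K4me3 was 1.90 in WT 57, 0.77 in WT 58, 2.08 in DKO 43 and 1.34 in DKO 53, a difference of 0.37 ± 0.67 (SE). At Dppa4 (chr16:48283051-48286200) it was 2.34, 1.45, 2.39 and 1.56 in the same order, a difference of 0.08 ± 0.75. Neither passed the test (limma, Benjamini-Hochberg adjusted p = 1.00 for each), and the genotypes overlapped at both. Without WT 58 the differences turned to -0.19 and -0.36. H3K4me3 at a promoter does not show whether a gene still makes protein, so these values do not check the labels.

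Marks of the cell type were in place in both genotypes. All 10 mESC genes examined, among them Pou5f1, Nanog and Sox2, had a promoter region that lay above IgG–IgG in all 4 libraries, and none was called. At Klf4 (chr4:55528951-55534500), a core pluripotency factor, the values were 3.56, 2.18, 3.40 and 3.06 against 0.04 in IgG–IgG, a difference of 0.36 ± 0.91 that turned to -0.33 without WT 58. Of 12 extraembryonic endoderm markers, 10 had a promoter region, 9 of them above IgG–IgG in all 4 libraries as well, and none was called. Of 13 fibroblast markers, 7 had one, 6 of them above IgG–IgG in all 4 libraries. Only Twist2 of these was called lower (14.3%, against 2.81% of the 16098 genes with a promoter region). The 10 endoderm promoters averaged 2.42 and 1.27 in WT 57 and WT 58 and 1.88 and 1.66 in DKO 43 and DKO 53, with single values from 0.44 to 3.36. The 7 fibroblast promoters averaged 2.22, 1.13, 1.14 and 1.20, with single values from -1.19 to 2.76. Bivalent promoters of silent genes carry H3K4me3 in mESCs, so a mark at these genes does not count cells of another type, and their part in the results was not tested.

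Of the 43065 regions, 1746 (4.05%) were lower in DKO cells and 224 (0.520%) were higher, at a log2 difference above 1 and an adjusted p under 0.05 (limma, Benjamini-Hochberg). Without adjustment, 4256 regions were lower and 2366 higher at p under 0.05. Lost regions covered 2048.85 kb and gained regions 94.2 kb. Both WT clones lay above both DKO clones in 1744 of the 1746 lost regions, against 16.6% of all regions, and both DKO clones lay above both WT clones in 218 of the 224 gained regions, against 22.0% of all. The regions were called on these same values, which nearly fixes that order. The counts rest on each clone. They were 682 lower and 1676 higher without WT 57, 4797 and 1631 without WT 58, 76 and 0 without DKO 43, and 100 and 0 without DKO 53. Each of these fits leaves 1 genotype with a single library, whose spread is then assumed to be that of the other genotype's pair. The share of calls that were higher was 11.4%, and it was 25.2% (2896 lower, 974 higher) when each library was centred on its median.

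**Figure D1:**
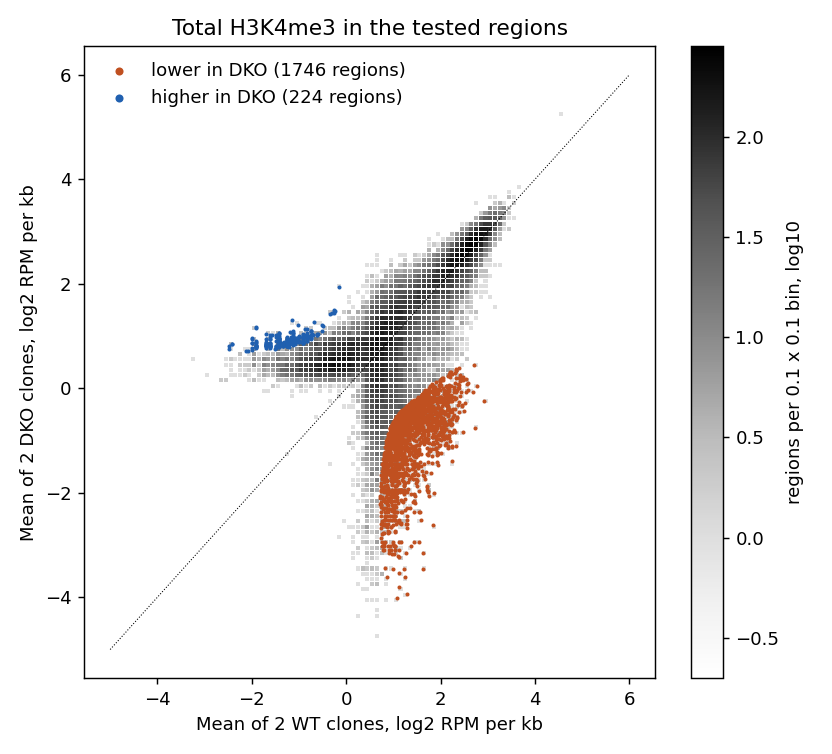
Mean total H3K4me3 of the 2 WT clones (x axis) and of the 2 DKO clones (y axis) in log2 RPM per kb, for the 43065 tested regions, with grey squares giving the number of regions per bin on a log10 scale. The 1746 regions called lower (orange) and the 224 called higher (blue) lie below and above the dotted line of equal values. The median WT mean was 1.28 in lost regions and 0.96 in all tested regions, with upper quartiles of 1.69 and 2.02, and the median DKO mean was 0.90 in gained regions.

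Most calls were at regions listed for a single genotype. Of the lost regions, 1710 were listed for WT only and 36 for both genotypes. Of the gained regions, 223 were listed for DKO only and 1 for both. The lists were made from these same libraries, so a region listed for 1 genotype had to be stronger there to some degree, and 21.5% of WT-only regions were called lower while 2.00% of DKO-only regions were called higher. Among the 23986 regions listed for both, 0.150% were called lower and 0.00417% higher.

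Summed over all lost regions, H3K4me3 was 4.44 RPM per kb in WT 57, 2.05 in WT 58, 0.569 in DKO 43 and 0.702 in DKO 53, with 0.762 in IgG–IgG. Both WT clones were above both DKO clones, and both DKO clones were below the IgG–IgG library of the WT clone. IgG–IgG was pulled down again after the first pull-down, while total H3K4me3 was not. Each was scaled to its own library size, so the control does not measure the background of the H3K4me3 libraries. The WT mean was 5.10-fold the DKO mean, and the lower WT clone was 2.92-fold the higher DKO clone. In the promoter regions that were listed for both genotypes and not called, the sums were 8.53, 3.43, 6.49 and 4.93 against 1.08 in IgG–IgG, with the DKO clones between the WT clones. The ratios at lost regions describe the regions that the test chose.

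At promoters, 473 regions within 1.5 kb of a RefSeq start site were lost, touching the promoters of 495 genes. Counting each gene by its strongest promoter region, 453 of 16098 genes (2.81%) were lower and 3 (0.0186%) were higher. The largest fall was at Sytl4 (chrX:133981051-133982100), which encodes a synaptotagmin-like protein of granule exocytosis. H3K4me3 there was 1.84 in WT 57, 0.68 in WT 58, -3.83 in DKO 43 and -1.35 in DKO 53, from 71, 28, 2 and 10 reads. The genotypes did not overlap, and the difference was -3.85 ± 0.91 (SE, limma adjusted p = 0.00210), a 14.4-fold fall of the mean. Without WT 57 (-3.27) or without DKO 43 (-2.60) Sytl4 was no longer called.

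Arhgef6 and Kcne1l, also on the X chromosome, behaved alike. Arhgef6 (chrX:57325651-57327000), an exchange factor for RAC and CDC42, had 98 and 33 reads in the WT clones and 6 and 8 in the DKO clones, a difference of -3.57 ± 0.83 (adjusted p = 0.00177). Kcne1l (chrX:142305301-142306500), a potassium channel accessory subunit, had 75 and 20 reads against 4 and 8, a difference of -3.31 ± 0.98 (adjusted p = 0.0249). X-linked regions were called lower at 5.33%, against 4.05% of all regions.

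Mtarc1 (chr1:184810201-184811700), a molybdenum-dependent reductase of mitochondria, fell from 2.35 and 1.05 in WT 57 and WT 58 to -2.54 and -1.18 in DKO 43 and DKO 53. Its DKO values were below the 0.69 of IgG–IgG, and the difference was -3.57 ± 0.60 (adjusted p = 5.38e-06). Gp5 (chr16:30307951-30310350), a subunit of the platelet receptor for von Willebrand factor, fell from 3.07 and 1.87 to -0.94 and -0.73, a difference of -3.30 ± 0.56 (adjusted p = 5.04e-06). Lrrfip1 (chr1:90997651-90999900) and Col16a1 (chr4:130047151-130048650), a fibril-associated collagen, had differences of -3.30 ± 0.53 and -3.34 ± 0.53, with an adjusted p of 2.44e-06 each.

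The other promoters among the 12 largest falls had the same lack of overlap. Npffr2 (chr5:89526751-89527650), a neuropeptide FF receptor, differed by -3.47 ± 0.70, and Ptchd3 (chr11:121829851-121831500), of the patched domain family, by -3.33 ± 0.53. Sohlh2 (chr3:55181401-55182900), a helix-loop-helix factor of early germ cells, differed by -3.30 ± 0.56. The predicted genes Gm40602 (chr10:13060201-13062000) and Gm6345 (chr1:170254501-170255850) differed by -3.63 ± 0.53 and -3.32 ± 0.58. Their adjusted p ranged from 2.02e-07 at Gm40602 to 0.000166 at Npffr2.

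**Figure D2:**
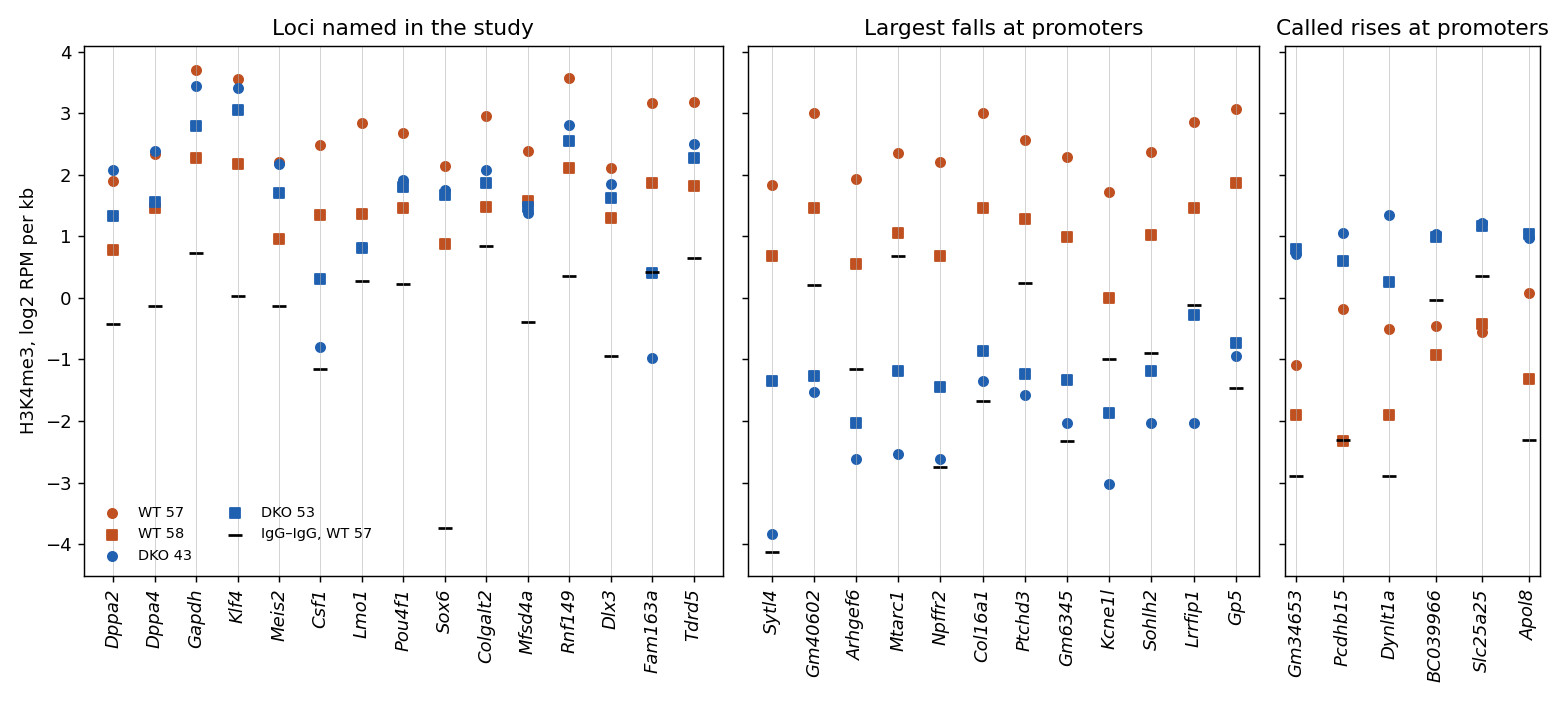
Total H3K4me3 (y axis, log2 RPM per kb) at 15 loci that the study names, at the 12 promoters with the largest fall and at the 6 promoters called higher. Each point is 1 library (WT clones orange, DKO clones blue) and black dashes are the IgG–IgG library; at the 12 falls both WT clones lie above both DKO clones, as they do in the left panel at Csf1 and Fam163a and at Lmo1 and Mfsd4a, which were not called.

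Of the loci that the study names, 17 had a promoter region and 3 of them were lower (17.6%, against 2.81% of genes with a promoter region), 2 of which are described here. They include its qPCR controls and bivalent test loci and were not drawn as a sample of promoters, so their share is a description. Csf1 (chr3:107759251-107761350), the macrophage colony-stimulating factor, had 2.48 in WT 57, 1.34 in WT 58, -0.79 in DKO 43 and 0.31 in DKO 53. The genotypes did not overlap, and the difference was -2.15 ± 0.56 (adjusted p = 0.00691), a 4.45-fold fall. Unlike most lost promoters, it was listed as a region in both genotypes. Fam163a (chr1:156203851-156205650) had 3.17, 1.87, -0.97 and 0.41, a difference of -2.80 ± 0.60 (adjusted p = 0.000483). The genotypes did not overlap there either. Tdrd5 (chr1:156302551-156304350), a tudor domain protein of germ cells on the same chromosome, was not called. It had 3.18, 1.82, 2.50 and 2.27, and the genotypes overlapped (-0.11 ± 0.82).

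At Lmo1 (chr7:109174051-109176000), a LIM-only cofactor, H3K4me3 was 2.84, 1.37, 0.83 and 0.81. The WT clones lay above the DKO clones, but the difference of -1.28 ± 0.66 did not pass (adjusted p = 0.331), although it did when libraries were centred or quantile normalised. Mfsd4a, where the WT clones also lay above the DKO clones, differed by -0.56 ± 0.71 and was not called either. The developmental regulators Meis2 (0.36 ± 0.72), Pou4f1 (-0.21 ± 0.75), Sox6 (0.20 ± 0.69) and Dlx3 (0.02 ± 0.71) were not called, nor were Colgalt2 (-0.24 ± 0.77), Rnf149 (-0.16 ± 0.86) and the housekeeping gene Gapdh (0.13 ± 0.91). With these errors, differences larger than 1 log2 unit in either direction could not be told from 0 at these promoters, as the -1.28 at Lmo1 shows.

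Of the germline genes, 4 of 23 promoter regions were lower (17.4%, against 2.81% of genes with a promoter region) and none was higher. Their median difference was -0.62, against 0.06 for the genes with a promoter region. Another 17 germline genes had no promoter region. These counts, too, rest on each clone. The germline count was 0 without DKO 43, 1 without DKO 53 and 10 without WT 58. With either DKO clone left out, no member was called in the lists of developmental factors, cell adhesion, ion channel and imprinted genes, in the fibroblast markers or among the loci of the study. Beside Sohlh2, Tdrd6 (chr17:43629001-43630950), a tudor protein of the chromatoid body, had 2.62 in WT 57, 1.37 in WT 58, -0.87 in DKO 43 and -0.43 in DKO 53. The genotypes did not overlap, and it differed by -2.65 ± 0.54 (adjusted p = 0.000247). Syce1 (chr7:140787151-140788350), part of the central element of the synaptonemal complex, differed by -2.64 ± 0.54 (adjusted p = 0.000245). Ddx4 (chr13:112651651-112652850), the germ cell RNA helicase also called Vasa, had 1.95, 1.29, -1.12 and -0.61, without overlap, and differed by -2.49 ± 0.52 (adjusted p = 0.000370).

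Among developmental transcription factors, 4 of 63 promoter regions were lower (6.35%, against 2.81% of genes with a promoter region), with a median over the list of -0.14, against 0.06. Without WT 57 the median of the list was 0.44. They were Tbx4 of the hindlimb field (chr11:85885501-85887150, -2.65 ± 0.53), the muscle determination factor Myod1 (chr7:46375951-46377900, -2.12 ± 0.53), Pax8 of thyroid and kidney (chr2:24473401-24475650, -2.07 ± 0.55) and Sox10 of the neural crest (chr15:79162201-79165050, -1.87 ± 0.56). At Myod1 the values were 1.82 and 1.33 in the WT clones and -0.44 and -0.65 in the DKO clones. At Sox10 they were 2.40 and 1.23 against -0.11 and -0.00085. Neither gene's genotypes overlapped. The adjusted p ranged from 0.000172 at Tbx4 to 0.0279 at Sox10. Twist2 (chr1:91800151-91803000), a mesenchymal factor from the fibroblast list, had 2.59 and 1.32 against -1.19 and -0.20, while IgG–IgG stood at 1.08 (-2.65 ± 0.54, adjusted p = 0.000214).

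Of the cell adhesion and axon guidance genes, 4 of 48 were lower (8.33%, against the same 2.81%), with a median of -0.25, which was 0.41 without WT 57. Cdh20 (chr1:104768101-104769750), a cadherin, differed by -2.45 ± 0.53 and Nlgn1 (chr3:26331001-26332350), a postsynaptic neuroligin, by -2.24 ± 0.56. Cntn4 (chr6:105676801-105679350), a contactin of axons, differed by -1.86 ± 0.53. In each of these 3, both WT clones lay above both DKO clones. Of the ion channel and neurotransmitter receptor genes, 1 of 56 was lower (1.79%, below the 2.81% of all such genes), the potassium channel gene Kcna2 (chr3:107100901-107103000, -2.38 ± 0.55, adjusted p = 0.00145). Of the imprinted genes, 1 of 30 was lower (3.33%, close to that background), the intronless Nap1l5 (chr6:58906201-58907700, -2.31 ± 0.53, adjusted p = 0.00138).

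No member was called among 26 pluripotency genes, 73 cytosolic ribosomal protein genes, 22 genes of the H3K4 methylation machinery, 33 Polycomb component genes and 19 DNA methylation genes with a promoter region. At an unadjusted p under 0.05 none of these was lower or higher either. Of all 16098 genes with a promoter region, 2.81% were called lower, and 823 were lower and 35 higher at that unadjusted p. The SE was 0.88 at Pou5f1 and 0.91 at Klf4, against 0.56 at the called Csf1 promoter. At such strong promoters a larger fall was needed for a call. At the background share, each of these lists alone would hold few calls or none. The largest differences among them were at Dppa3 (Stella, a maternal factor, -0.86 ± 0.58) and Tbx3 (0.68 ± 0.82) of the pluripotency genes, and at Dnmt3l (0.65 ± 0.80), a cofactor of de novo DNA methylation. Of 26 genes of the 2-cell stage, 24 had no promoter region and the other 2 were not called. Tdpoz2 differed by -1.49 ± 0.52 (adjusted p = 0.0768) on 11, 12, 7 and 5 reads, and it passed when libraries were centred or quantile normalised. No member of any list was called higher.

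Away from start sites, 1273 regions were lost, 403 in exons, 325 in introns and 545 between genes. Lost regions were more often exonic than tested regions (23.1% against 11.1%) and intergenic (31.2% against 21.2%), and less often at promoters (27.1% against 34.5%) and in introns (18.6% against 33.2%). The median distance from the nearest start site was 15151.5 bp for lost and 7565 bp for tested regions. The median difference was -2.25 at lost promoter regions, -2.06 in exons, -2.19 in introns and -2.45 between genes.

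The largest falls of all were in regions that had almost no reads in DKO cells. The region nearest to Kcnv1 (chr15:45589801-45590400, intergenic, 474867 bp from the start site) had 40 reads in WT 57, 17 in WT 58 and 1 in each DKO clone. Scaled to library size this was 41.1-fold more in the WT clones (95% counting interval 10.9 to 348), and the fitted difference was -5.23 ± 1.41 (adjusted p = 0.00980). The region nearest to Ptchd1 (chrX:156064501-156065100, intergenic) had 42 and 12 reads against 0 and 1 (77.9-fold, interval 13.4 to 3135), a fitted difference of -5.09 ± 1.55 (adjusted p = 0.0294). Duplicate reads were kept, so such intervals cover counting error only.

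The intergenic regions nearest to Lrrc4c (chr2:97900951-97902000, 90 and 37 reads against 3 and 2) and Agtr1b (chr3:20931901-20932800, 57 and 21 against 0 and 3) fell by 5.09 and 4.93 on the log2 scale. An intronic region nearest to the cytochrome P450 gene Cyp2j8 (chr4:96463051-96464400, 105 and 31 reads against 4 and 2), fell by 4.86, and an exonic region near Psmb11, the thymus-specific proteasome subunit (chr14:54631801-54633000, 121 and 36 against 1 and 12), fell by 4.78. All 6 passed the test, with adjusted p from 0.000178 at Psmb11 to 0.0294 at Ptchd1, and in none did the genotypes overlap.

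The Kcnv1 and Ptchd1 regions lie wholly in soft-masked sequence, which the reference marks as repetitive, and share the 189 bases printed above, read from opposite strands. This was looked for after their values were seen. A stretch of 24 bases from it was present, on either strand, in 163 of the 43065 regions (0.378%), of which 72 were called lower (44.2%, against 4.05% of all regions and 21.5% of WT-only regions) and none higher. Of the 163, 118 lay between genes, 43 in introns and none at promoters, and 162 were listed for WT only, so they had to be stronger there to some degree. Their median difference was -2.92. Summed over the 163, H3K4me3 was 2.70 RPM per kb in WT 57, 1.16 in WT 58, 0.247 in DKO 43 and 0.304 in DKO 53, with 0.266 in IgG–IgG. Both WT clones stood above both DKO clones, and the DKO clones were at the level of the control. Reads were kept only at a mapping quality above 20, so copies too alike to map uniquely were not counted.

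Regions made up mostly of soft-masked sequence were common among lost regions between genes and in introns, although the median soft-masked share of a region was 11.5% for lost and 14.5% for tested regions. Regions with at least 50% of their bases soft-masked made up 338 of the 1746 lost regions (19.4%), against 5.33% of all tested regions. Between genes they were 45.3% of lost and 12.1% of tested regions, and in introns 27.4% and 7.57%. Gained regions also held more of them than tested regions, 13.4% in all and 14% in introns. At promoters they were 0.211% of lost and 0.437% of tested regions.

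The widest lost regions were broad domains near known genes. The widest was an exonic region nearest to Plec, which encodes the cytolinker plectin (chr15:76177651-76182600, 4950 bp), with 2.21 and 1.25 in the WT clones and -0.41 and 0.00 in the DKO clones, a difference of -1.94 ± 0.55 (adjusted p = 0.0171). Gfi1, a zinc finger repressor of blood cells (chr5:107722951-107727300, 4350 bp, promoter), differed by -1.73 ± 0.53 (adjusted p = 0.0294). An intergenic region of 4050 bp lay 5658 bp from the start of Smoc1, a secreted calcium-binding protein (chr12:81017101-81021150), and differed by -2.35 ± 0.54 (adjusted p = 0.00141). The genotypes did not overlap at these 3. Of all lost regions, 257 (14.7%) lay within 50 kb of another, a share that was not set against other tested regions. Chosen after values were seen, 6 genes were nearest to 3 lost regions each, and among them Chd7, a chromatin remodeller of neural crest development, had 1 at its promoter (differences from -2.34 to -1.82), while Jph2, a junctophilin of heart muscle, had none there (-2.49 to -1.81).

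The 36 lost regions that both genotypes listed, also picked out after values were seen, overlapped a DKO region by at least 1 bp. They were still measured over the WT coordinates and were called on these same values. They included the promoters of the leptin receptor Lepr (chr4:101716951-101718450), with 2.69 and 1.44 in the WT clones and -1.03 and -0.14 in the DKO clones (-2.65 ± 0.55, adjusted p = 0.000289), and of the lysosomal lipase Lipa (chr19:34526401-34527750, -2.27 ± 0.58). The promoters of Slitrk4, Rgs8, Gpnmb and Nxph2 fell by 2.22, 2.18, 2.17 and 2.21 on the log2 scale. In these promoters, too, both WT clones lay above both DKO clones.

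Lost regions had more CpGs than tested regions and gained regions fewer. The median was 3.22 CpGs per 100 bp in lost, 1.00 in gained and 2.07 in all tested regions. With the tested regions in 4 groups of like number, split at 1.28, 2.07 and 3.43 CpGs per 100 bp, the share called lower was 0.871% in the group with the fewest CpGs, then 1.59%, 6.69% and 7.07%. The share called higher went the other way, at 1.25%, 0.652%, 0.167% and 0.00932%. At promoters, lost regions (median 3.79) and tested regions (3.71) were close, and the gap was in exons (3.47 against 2.17), introns (2.53 against 1.33) and between genes (2.97 against 1.64). Close to the start sites the order was the opposite, since the 300-base promoter windows of genes with a lost region had a median of 12.5 CpGs against 22 for all, and 66.8% of them against 87.9% held 10 or more. Lost regions were narrower than tested regions, with a median of 1200 against 1500 bp.

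**Figure D3:**
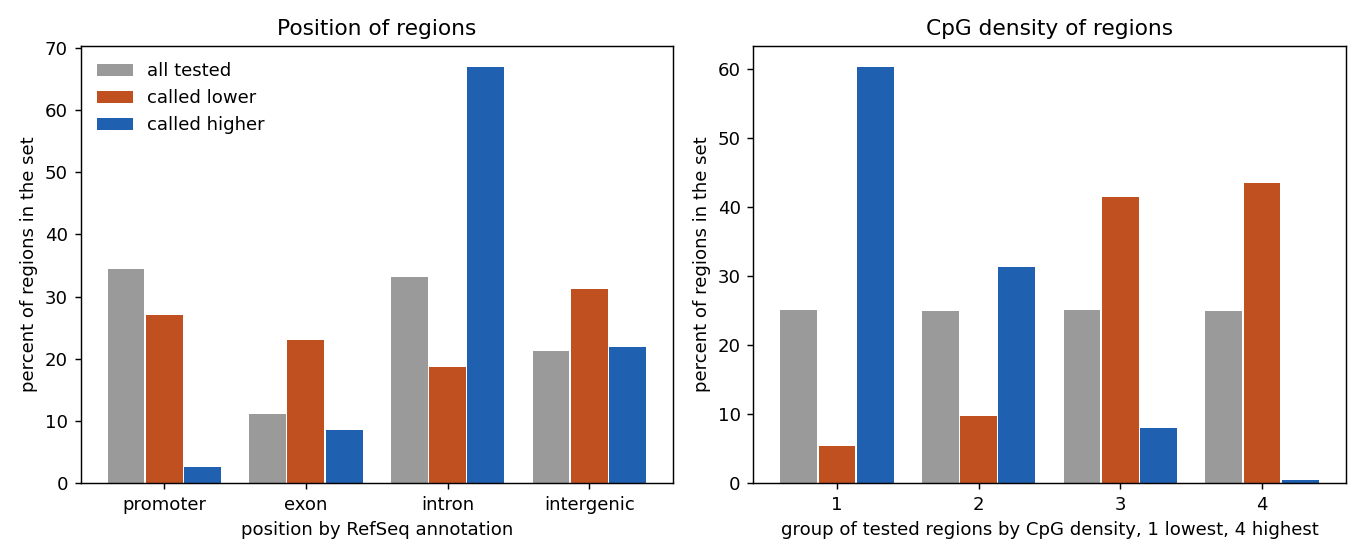
Percent of all tested regions (grey), regions called lower (orange) and regions called higher (blue) by position in the RefSeq annotation (left) and by CpG density in 4 groups of tested regions (right). Introns hold 67.0% of the gained regions and the group with the fewest CpGs 60.3% of them, while the 2 groups with the most CpGs hold 41.4% and 43.5% of the lost regions.

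Gained regions were short, weak and mostly intronic. Of the 224, 150 lay in introns, 49 between genes, 19 in exons and 6 at promoters, and 194 were 300 bp wide, the narrowest region in the tables. That width made up 86.6% of gained, 12.5% of lost and 6.97% of tested regions. Among regions of that width, 219 (7.29%) were called lower and 194 (6.46%) higher. The median gained region had 2 reads in WT 57, 3 in WT 58, 16 in DKO 43 and 14.5 in DKO 53. Summed over them, H3K4me3 was 0.491, 0.612, 2.17 and 1.95 RPM per kb, against 0.298 in IgG–IgG, with both DKO clones above both WT clones and a DKO mean of 3.74-fold the WT mean. These regions, too, were chosen by the test for being higher. Only 45 regions were called higher among those at least 600 bp wide, and 10 when the spread was pooled over all 16 ChIP libraries of the clones.

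The 6 gained promoter regions were at Gm34653, Pcdhb15, Dynlt1a, BC039966, Slc25a25 and Apol8, with differences from 1.63 to 2.26. BC039966 and Slc25a25 had the most reads. At Slc25a25 (chr2:32429701-32431950), a calcium-dependent ATP-Mg/Pi carrier of mitochondria, H3K4me3 was -0.55 in WT 57, -0.42 in WT 58, 1.22 in DKO 43 and 1.17 in DKO 53, from 29, 28, 142 and 123 reads. At BC039966 (chr4:153949651-153952050) it was -0.46, -0.93, 1.04 and 0.98. The genotypes did not overlap at either, and the differences were 1.68 ± 0.52 (adjusted p = 0.0344) and 1.71 ± 0.54 (adjusted p = 0.0381). IgG–IgG was 0.36 at Slc25a25 and -0.03 at BC039966, above both WT clones. Gm34653 (chr2:34833751-34834200), Dynlt1a (chr17:6317701-6318150), a dynein light chain gene, and Apol8 (chr15:77755651-77755950) rested on 2 to 6 reads in each WT clone and 13 to 31 in each DKO clone. Pcdhb15, of the clustered protocadherins, had 5, 1, 17 and 11 reads. Gm34653, Pcdhb15 and BC039966 gained H3K4me3 at their strongest promoter region. The strongest regions of Slc25a25 (chr2:32450101-32455500, 0.07), Dynlt1a (0.18) and Apol8 (0.87) were others and were not called. All 6 gained regions lost their call when the spread was pooled over all ChIP libraries.

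The largest rises away from promoters were in introns and 300 bp wide. The region nearest to Ndufa11b (chr16:22093501-22093800) had 1 read in WT 57, 0 in WT 58, 12 in DKO 43 and 15 in DKO 53, which is 18.7-fold more in the DKO clones when scaled to library size (95% counting interval 3.08 to 766), and a fitted difference of 3.29 ± 1.02 (adjusted p = 0.0331). The region nearest to Mrps6 (chr16:92130901-92131200), of the mitochondrial ribosome, had 1, 1, 16 and 12 reads (9.70-fold, interval 2.45 to 84.0). That nearest to Mrps18c (chr5:100808401-100808700), of the same ribosome, had 1, 1, 21 and 9 (10.4-fold, interval 2.64 to 89.7). That nearest to Zfp462 (chr4:54967801-54968100), a zinc finger gene, had 1, 2, 17 and 17 reads (7.85-fold, interval 2.47 to 40.0). Those nearest to Mir706 (chr6:120006301-120006600) and 1700099I09Rik (chr13:102770251-102770550) had fitted differences of 3.24 ± 1.04 and 3.08 ± 0.74. The DKO clones were above the WT clones in all 6, but 5 of them, all except the region nearest to Mrps6, lost their call when the spread was pooled over all ChIP libraries.

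Gained regions with more reads were few. Picked out after values were seen, 17 were at least 1050 bp wide, and they included intronic regions nearest to Chd3 (chr11:69372901-69374850), a subunit of the NuRD remodelling complex, with 35 and 28 reads in the WT clones against 230 and 160 in the DKO clones (2.09 ± 0.57, adjusted p = 0.0108), and to Rictor (chr15:6714451-6715800), the scaffold of mTORC2, with 6 and 11 against 76 and 64 (2.57 ± 0.69, adjusted p = 0.00944). The widest was an exonic region nearest to Mcm3ap (chr10:76462201-76465350, 3150 bp), with 61 and 32 reads against 323 and 143 (1.75 ± 0.53, adjusted p = 0.0292). In these 3 both DKO clones lay above both WT clones.

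The other ChIPs of the same clones were read at the regions of H3K4me3. At the 1746 lost regions, H3K27me3 was lower in 239 (13.7%, against 0.743% of all regions), K4-K27 in 697 (39.9%, against 2.20%) and K27-K4 in 801 (45.9%, against 2.59%). The median differences there were -0.59, -2.52 and -1.86. The H3K27me3 calls depend on the scaling and on each clone. Centring each library left 38 of the lost regions lower in H3K27me3 (2.18%, against 0.0975% of all regions), and the count was 2 without DKO 43, 116 without DKO 53, 202 without WT 57 and 487 without WT 58. For the reChIPs, leaving out 1 clone gave 360 to 553 in K4-K27 and 453 to 1095 in K27-K4. Calls in the other direction over all regions were 89 for K27-K4 (0.207%), 113 for K4-K27 (0.262%) and 115 for H3K27me3 (0.267%), and of the lost regions 4 were higher in H3K27me3 and none in the reChIPs. A total of 224 lost regions were lower in all 4 ChIPs (38 with H3K27me3 centred), 592 in H3K4me3 and both reChIPs, and 834 were called in no other ChIP. The K4-K27 libraries share the H3K4me3 pull-down and every ChIP shares the clones, so these are not independent measurements of the knockout. With a single variance prior for all regions, none of the 43065 was called in the other 3 ChIPs (limma), while 1163 and 1340 were lower and higher in H3K27me3 at an unadjusted p under 0.05, 2649 and 2655 in the K4-K27 reChIP, and 2265 and 2860 in the opposite one.

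**Figure D4:**
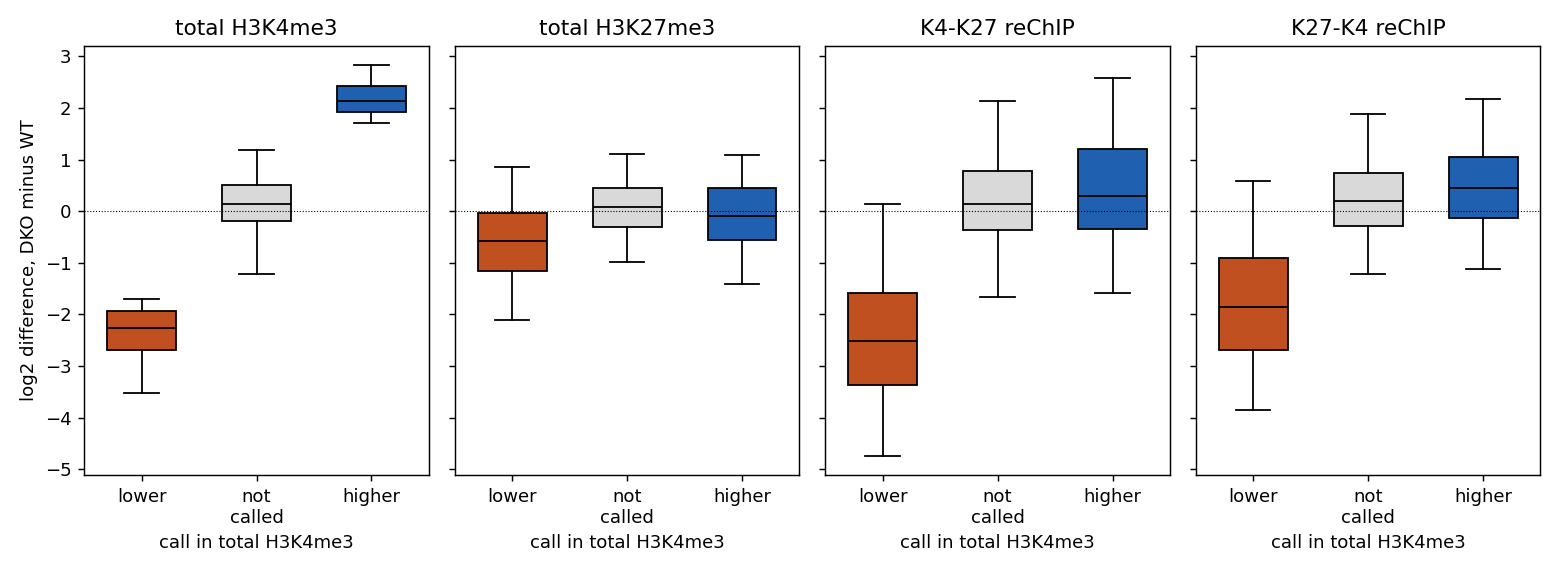
Difference of DKO and WT means (y axis, log2) in each of the 4 ChIPs at the regions called lower, not called or called higher in total H3K4me3. Boxes span the quartiles with the median as a line and whiskers the 5th to 95th percentiles; at lost regions the medians are -2.25 in H3K4me3, -0.59 in H3K27me3, and -2.52 and -1.86 in the reChIPs that began with H3K4me3 and with H3K27me3.

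At Fam163a, K4-K27 was 4.48 in WT 57, 3.48 in WT 58, 0.28 in DKO 43 and 0.74 in DKO 53, and K27-K4 was 4.85, 3.90, 1.57 and 1.67. Neither overlapped between genotypes (-3.47 ± 0.59, adjusted p = 8.74e-07, and -2.76 ± 0.51, adjusted p = 0.00518). H3K27me3 there was 2.75, 1.92, 0.48 and 1.31, a difference of -1.44 that did not pass (adjusted p = 0.0603). Gp5 was lower in all 4 ChIPs, with differences of -2.77 in H3K27me3, -5.19 and -4.92 in the K4-K27 and K27-K4 reChIPs, and so were Tdrd6 (-2.16, -4.54 and -4.17), Ddx4 (-1.80, -4.52 and -3.76), Twist2 (-2.91, -4.74 and -4.68) and Plec (-2.90, -4.42 and -4.06). With H3K27me3 centred, Gp5, Twist2 and Plec were still lower in it, while Tdrd6 (adjusted p = 0.0751) and Ddx4 (adjusted p = 0.194) were not, and without DKO 43 none of the 5 was. Gm6345 and the Smoc1 region differed from these. The Gm6345 promoter was lower in K4-K27 (-2.86) and not called in H3K27me3 (-0.13) or K27-K4 (-1.23), and the Smoc1 region was called in none (0.30, -1.25 and -0.28). The intergenic regions nearest to Kcnv1, Ptchd1, Lrrc4c and Agtr1b were called in none of the 3 either, although their fitted reChIP differences were large. At Kcnv1 K4-K27 differed by -4.24 ± 1.33 (adjusted p = 0.0569) and K27-K4 by -2.24 ± 0.90. The same 2 differences were -2.47 and -2.85 at Ptchd1, -1.87 and -1.39 at Lrrc4c, and -2.83 and -3.50 at Agtr1b.

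Regions listed for both reChIPs in WT cells made up 995 of the lost regions (57.0%, against 23.2% of tested regions). K27-K4 was lower at 725 of these 995 (72.9%) and at 76 of the other 751 (10.1%). H3K27me3 was lower at 232 (23.3%) and at 7 (0.932%). The reChIP lists were made from the WT libraries compared here, so the 995 had to be high in them to some degree and the 751 had less signal to lose, and the shares are given as a description. The median H3K4me3 difference was -2.27 in the 995 and -2.24 in the 751. By position, a WT K27-K4 region overlapped 91.5% of lost promoter regions, 75.2% of exonic, 41.5% of intronic and 46.8% of intergenic ones, against 48.5%, 28.6%, 10.9% and 19.1% of tested regions in those places. A WT K4-K27 region overlapped 92.0%, 74.2%, 44.0% and 55.6% of the lost regions in the same order, against 89.3%, 33.9%, 15.2% and 23.7%, so at promoters that share was close to the background. Of all lost regions, 67.6% overlapped a WT K4-K27 region and 5.44% a DKO K4-K27 region, while the gained regions overlapped these lists at 1.79% and 5.36% and all tested regions at 44.6% and 48.2%.

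By chromosome, lost regions ranged from 2.92% of tested regions on chromosome 11 to 5.33% on the X chromosome, with none among the 8 regions of the Y chromosome. Chromosome 8 held 26 of the 224 gained regions (1.05% of its regions, against 0.520% of all) and had a median difference of 0.28, against 0.13 over all regions. It held 6.13% and 6.21% of the H3K4me3 reads in tested regions in WT 57 and WT 58, and 6.64% and 6.80% in DKO 43 and DKO 53. The DKO clones were higher in this share in H3K27me3, K4-K27 and K27-K4 as well, with 5.81% to 6.34% in WT and 6.47% to 6.98% in DKO libraries. Without chromosome 8, 1644 regions were lower and 188 higher. The part of chromosome copy number in its gains was not tested.

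**Figure D5:**
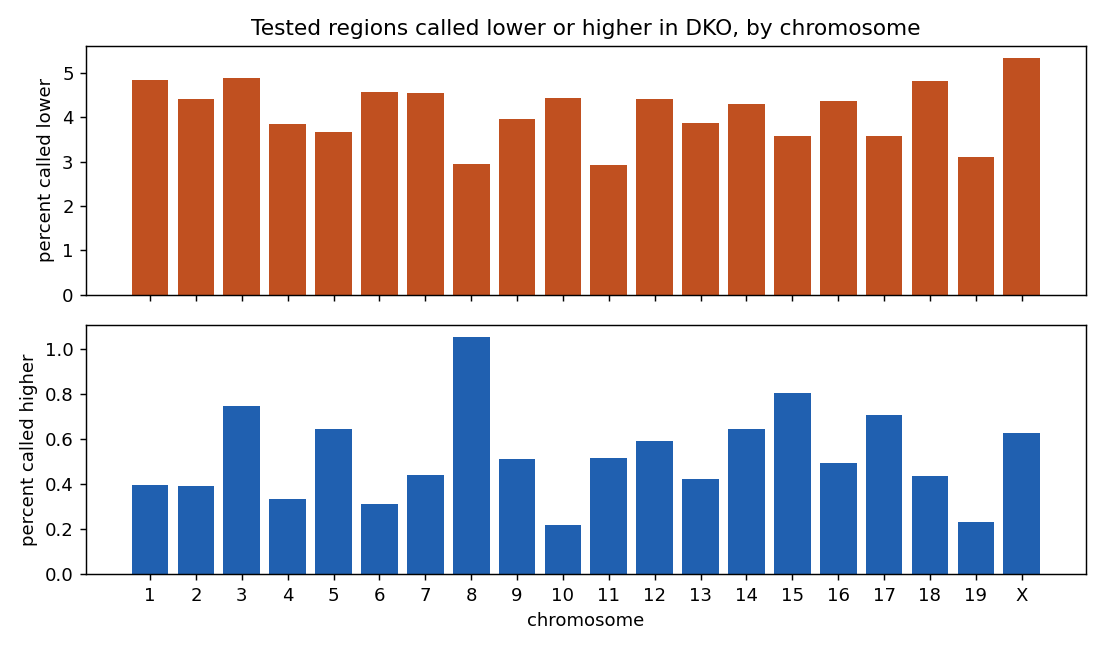
Percent of the tested regions of each chromosome called lower (top) and higher (bottom) in total H3K4me3 in DKO cells, without the Y chromosome. Lost regions make up between 2.92% and 5.33% of each chromosome, and gained regions peak at 1.05% on chromosome 8.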

How the data were processed

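Total H3K4me3 was profiled in 2 WT and 2 DKO mESC clones, with H3K27me3 and both reChIPs from the same clones. Per the labels and the methods of the study, the authors trimmed reads (Trim Galore 0.6.6), aligned them to mm10, the assembly of GRCm38, with BWA 0.7.13, handled alignments with SAMtools 1.9 and marked duplicates with Picard 2.6.0. The versions are from the submitters' processing notes. The values that the authors deposited are log2 RPM per kb. Only alignments of mapping quality above 20 had been counted, extended by 200 bp, with duplicates kept and no subtraction of IgG–IgG. A region with 0 reads had been entered as 0.9 reads. Values stepped in whole reads, so reads per region and per library were recovered, for description and for 1 alternative. Duplicates raise the apparent precision of weak regions, and scaling to library size leaves differences in ChIP enrichment in the values. According to the methods, the study called peaks per replicate with EPIC2 against IgG–IgG, filtered them and intersected the replicates. The edges of the deposited regions lie on a grid of 150 bp, which differs from the bins stated for that step, so whether they are those peaks is not given in the sources used here. The submitters' processing notes also name MACS2, without a version. Tables of regions for E14 cells outside the clones, with 32 columns of no sample of the series, were not used.

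The 2 lists were joined with at least 1 bp counting as overlap. Genotypes were compared per region with limma 3.58.1 in R 4.3.3 (lmFit, eBayes with trend and robust estimation), adjusted by Benjamini-Hochberg over the 43065 regions. Errors of differences are standard errors of that fit, with n = 2 clones per genotype. A count test had been foreseen had the files held counts. Start sites, exons and promoter windows came from RefSeq, with promoters 1.5 kb either side of a start, and a gene took its strongest promoter region. Named loci were those of the study, the 12 largest falls and up to 12 rises at promoters (6 were called), 6 falls and 6 rises elsewhere, called list members up to 6 or the 2 largest differences, and the 3 widest lost regions. The members and lists were chosen with earlier results of these data known. Tests were tried on simulated data. Python 3.11.15, numpy 2.4.6, pandas 2.3.3, pysam 0.24.0 and matplotlib 3.10.9 were used. Alternatives covered scaling, the variance model, thresholds, filters, region lists, promoter width and each clone left out. Some loci that the rule selects are not reported here.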

Additional observations from a re-analysis of the deposited data

How the results depend on the processing

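More regions were lower than higher in every setting run except without WT 57 (682 lower, 1676 higher). Leaving out 1 clone at a time gave 76 to 4797 lower and 0 to 1676 higher regions in H3K4me3, with DKO 43 and DKO 53 deciding the low end and the lone library of a genotype assumed to vary like the other pair. Centring gave 2896 and 974, pooling the spread over all 16 ChIP libraries 748 and 10, leaving out the lowest quartile of mean values 558 and 1, keeping regions at least 1 log2 unit above IgG–IgG 738 and 102, and the WT list alone 829 and 0. The higher regions numbered 505 without trend and robust estimation, 412 after quantile normalisation, 118 with voom on recovered reads, 146 above a log2 difference of 2, and, in settings added after seeing the data, 45 at widths of at least 600 bp and 490 with at least 20 reads in both libraries of 1 genotype.

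For H3K27me3, 320 regions were lower and 115 higher, and of the 1746 lost regions 239 were lower. Centring gave 42, 4 and 38, and the clones left out gave 10 to 728, 0 to 816 and 2 to 487. For K4-K27 the counts were 949, 113 and 697. Centring gave 1488 lower and 195 higher, and the clones left out gave 422 to 744, 23 to 522 and 360 to 553. For K27-K4 they were 1116, 89 and 801. Centring gave 55 higher, and the clones left out gave 654 to 3336, 50 to 2065 and 453 to 1095. Without trend and robust estimation each of these counts was 0. The causes were not tested. Promoters held 34.5% of tested, 27.1% of lost and 2.68% of gained regions, and 43.7%, 34.1% and 12.9% at 5 kb either side of a start. With 1 kb upstream to 100 bp downstream, tested and lost regions stood at 32.9% and 23.7%, and with an overlap of at least 300 bp 33.9% of tested regions were at promoters.

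Of the loci reported under the naming rule, none of the 36 lost or 12 gained regions changed sign, while 20 of the 27 that were not called did, with a clone left out. The clones left out gave Dppa2 -0.19 to 0.93, Dppa4 -0.36 to 0.52, Gapdh -0.58 to 0.84, Klf4 -0.33 to 1.05, Meis2 -0.27 to 0.99, Pou4f1 -0.83 to 0.40, Sox6 -0.44 to 0.84, Colgalt2 -0.98 to 0.49, Rnf149 -0.90 to 0.57, Dlx3 -0.39 to 0.43 (and -0.014 after quantile normalisation), Tdrd5 -0.79 to 0.57, Eif1ad -0.51 to 1.04, Rps20 -1.14 to 0.28, Rpl13 -0.22 to 1.02, Men1 -0.45 to 1.10, Wdr5 -0.43 to 0.91, Pcgf5 -1.19 to 0.085, Phf1 -0.16 to 1.20, Gadd45g -1.19 to 0.20 and Gata4 -0.18 to 0.88. Of the 36, 31 were no longer called without DKO 43, 23 without DKO 53, 14 without WT 57, none without WT 58, and Plec, Gfi1 and Cntn4 when the spread was pooled. Of the 12 gained regions, all lost their call without DKO 43 or without DKO 53, 11 with the pooled spread (Mrps6 did not), 5 after quantile normalisation and 3 without WT 58. Medians of several lists changed sign with a clone left out, and those of the Polycomb component (0.03) and DNA methylation genes (0.07) became -0.04 and -0.0025 after quantile normalisation. No paired analysis was possible because the WT and DKO clones share no replicate numbers.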

Other observations

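The lost regions listed for both genotypes also included sites away from promoters. An intergenic region nearest to Gm1979 (chr5:26006551-26007900), 1824 bp from its start, had 3.37 in WT 57, 2.11 in WT 58, -1.03 in DKO 43 and -0.51 in DKO 53, with no overlap between genotypes (-3.51 ± 0.58, limma adjusted p = 3.37e-06). A region nearest to Cntnap2, a neurexin-related adhesion gene (chr6:47044351-47045400), lay 198996 bp from its start and differed by -2.21 ± 0.56 (adjusted p = 0.00500). Beside Chd7 and Jph2, the genes nearest to 3 lost regions each were Lrrc4c (differences from -5.09 to -3.56), Slco5a1 (-2.51 to -1.80), Lncppara (-2.30 to -1.76) and Gm10440 (-3.43 to -2.32), none at a promoter.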
